A study of Arabidopsis thaliana with 12 samples.

Results

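Hypoxia-responsive genes of Arabidopsis thaliana were read in seedlings that received no treatment. The set held 37 loci of 25383 on the array, and all 37 were among the 18976 genes tested. They were chosen by a list of loci known for low-oxygen responses, which was proposed with earlier results of these arrays in view. Which measured values weighed in that choice is not recorded, so the counts and p-values of the 37 loci are given as a description. Transcript levels came from 12 one-colour Agilent arrays of whole seedlings at day 10, grown on GM medium under long days and collected midway through the day. The 4 genotypes were wild type Col0 (WT), an arf2 mutant (arf2-8), a gnc gnl double mutant and plants labelled arf2-8 gnc gnl, with 3 independent biological samples each. The labels name 1 allele of ARF2 and none of GNC or GNL, and all genotypes had the same growth conditions. The ARF2 product is a transcription factor of the auxin response, while those of GNC and GNL are GATA factors known for promoting greening. No low-oxygen sample was analysed here, so the name of the set could not be checked by a response.

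Plant cells short of oxygen cannot run respiration at full rate and turn to ethanol fermentation, fed by sucrose synthase and glycolysis. The switch is controlled by group VII ethylene response factors (ERF-VII). With oxygen present, plant cysteine oxidases (PCOs) oxidise the amino-terminal cysteine of these factors, which marks them for degradation through the N-degron pathway. When oxygen or nitric oxide falls, the factors persist and induce a core set of genes, among them fermentation genes and the PCO genes, whose products act against the response. Members of this core set are also transcribed at a lower level in plants grown in air, in particular in tissues where oxygen is scarce, such as meristems and the root vasculature.

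The 75th percentile of the array signals ran from 2051.5 to 2864, 64.6% to 70.2% of the probes on an array were well above background, and log2 levels of arrays of 1 genotype correlated at 0.988 to 0.996 across genes. Of the 3 slides, slide 1 carried every WT array plus arf2 replicate 1. The remaining arf2 arrays shared slide 2 with labelled replicates 1 and 2, and labelled replicate 3 shared slide 3 with every gnc gnl array. ARF2 read 0.392% to 3.04% of the WT mean in arf2, and in gnc gnl GNC read 3.92% to 5.89% and GNL 2.3% to 6.71%, not well above background. In the plants labelled as the triple mutant, GNC read 5.61% to 6.40% of WT, but ARF2 read 54.4% to 70.5% and GNL 168% to 180%. ARF2 and GNL thus went against the label, and wherever a direction is drawn from these arrays they are named by label alone, as the labelled libraries. All 10 shoot markers and 18 to 20 of the 20 root markers were well above background on each array, as the label of whole seedlings requires.

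Hypoxia-responsive genes were called lower in arf2 and in gnc gnl than in WT, and none was called against WT in the labelled libraries. In arf2, 12 of the 37 fell and none rose, and the median log2 difference from WT was -0.89, with 36 of the 37 below 0. Over all tested genes the same test called 3.26% lower and 2.48% higher, and the median was -0.0041. In gnc gnl, 14 of the 37 fell and none rose, with a median of -0.60 and 35 below 0, beside 12.1% of all tested genes lower and 12.5% higher. In the labelled libraries 0 of 37 passed limma's test in either direction, 2 had an unadjusted p under 0.05 (1 higher, 1 lower), and 1.33% of all genes were called higher and 0.943% lower. The 37 differences there ran from -0.40 to 0.49 around a median of 0.01. A gene was called at an adjusted p under 0.05 by limma, the Benjamini-Hochberg adjustment running over all 18976 genes. In whole seedlings, fewer cells with a transcript and less transcript per cell cannot be told apart.

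**Figure D1:**
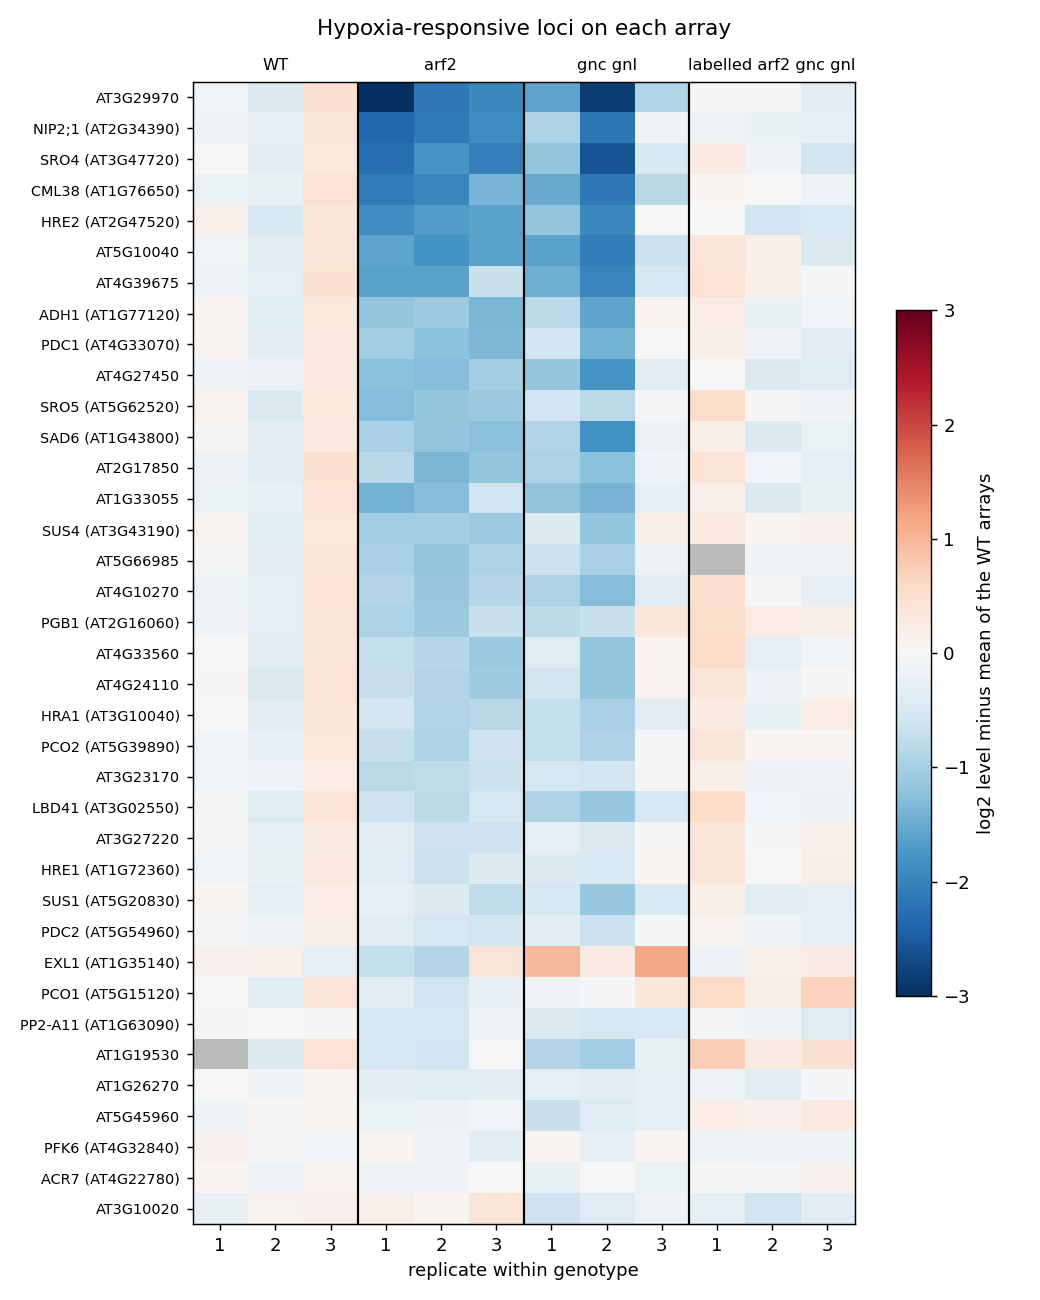
Log2 level of each of the 37 hypoxia-responsive loci (rows, ordered by the arf2 difference) on each of the 12 arrays (columns, 3 replicates per genotype), minus the mean of the WT arrays. Blue is below and red above the WT mean, and grey marks a removed outlier spot. The arf2 columns and gnc gnl replicates 1 and 2 are blue over most rows, while gnc gnl replicate 3 and the labelled libraries are pale.

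Array by array, the median of the members relative to the WT mean was -0.82, -0.96 and -0.76 (log2) in the 3 arf2 arrays. It was -0.67, -1.13 and -0.15 in the 3 gnc gnl arrays and 0.22, -0.097 and -0.11 in the labelled libraries. The WT arrays themselves spread from -0.30 in replicate 2 to 0.32 in replicate 3, with replicate 1 at -0.025. The arf2 arrays therefore lay below every WT array, while gnc gnl replicate 3 lay inside the WT range. The same medians over all tested genes stayed between -0.023 and 0.030.

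The members also ranked the arrays of 1 genotype alike. Of the 36 with a value on all WT arrays, 34 were highest in WT replicate 3 and 31 lowest in WT replicate 2. In gnc gnl, 34 of 37 were highest in replicate 3 and 32 lowest in replicate 2. In the labelled libraries, 29 of 36 were highest in replicate 1. In arf2 the order was less uniform, with 22 of 37 highest in replicate 3 and 12 in replicate 1. These counts were not made over all tested genes, so the shared order is not shown to be particular to the members. Comparisons with WT share the 3 WT arrays, so their values are set side by side below and not correlated.

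Among the genes of fermentation and sugar supply, PDC1 fell in arf2, SUS1 fell in gnc gnl, and no member rose in either mutant. Signals are given as a percentage of the 75th percentile of the array's signals, in the order of replicates 1 to 3. ADH1 (AT1G77120) read 1375, 1022 and 1648% in WT, 581, 620.2 and 513% in arf2, 752, 439.7 and 1371% in gnc gnl and 1533, 1129 and 1258% in the labelled libraries. ADH1 encodes alcohol dehydrogenase, the last enzyme of ethanol fermentation. All 3 arf2 arrays lay below all 3 WT arrays, gnc gnl replicate 3 lay among the WT arrays, and the labelled libraries overlapped WT. The log2 difference in arf2 was -1.22 ± 0.33 (SE, limma, adjusted p = 0.0567), 43.1% of WT, which missed the threshold, and in gnc gnl it was -0.78 ± 0.33 (adjusted p = 0.104). The labelled libraries exceeded arf2 by 1.19 ± 0.33 (limma, adjusted p = 0.0481), a call kept in 2 of the 12 fits that each left out 1 library, those without gnc gnl replicate 2 or 3. The 2 other ADH1 probes gave -1.28 and -1.35 in arf2.

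PDC1 (AT4G33070) read 264, 199.96 and 311% in WT, 124, 109 and 99.4% in arf2, 170.1, 95.5 and 251% in gnc gnl and 291, 229.5 and 199% in the labelled libraries. PDC1 encodes pyruvate decarboxylase, which forms the acetaldehyde that ADH1 reduces. The arf2 arrays again lay below every WT array, and gnc gnl spread from below the arf2 range to the WT range. The log2 difference was -1.20 ± 0.30 in arf2 (limma, adjusted p = 0.0394) and -0.67 ± 0.30 in gnc gnl (adjusted p = 0.121). The arf2 call of PDC1 passed in 3 of 12 fits that each left out 1 library, with differences from -1.38 to -1.06. Its paralogue PDC2 (AT5G54960) differed by -0.47 ± 0.15 in arf2 and -0.34 ± 0.15 in gnc gnl, and neither passed.

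SUS4 (AT3G43190) read 333, 243 and 391.68% in WT, 154, 156 and 148% in arf2, 239.5, 140.4 and 363% in gnc gnl and 386, 330.2 and 345% in the labelled libraries. SUS4 and SUS1 (AT5G20830) encode closely related sucrose synthases, which supply sugar for glycolysis, and cross-hybridisation between their probes was not tested. The 3 arf2 arrays of SUS4 lay close together and below WT, and gnc gnl replicate 2 lay lower still. SUS4 differed by -1.05 ± 0.28 in arf2 (limma, adjusted p = 0.0517), just outside the threshold, and the labelled libraries exceeded arf2 by 1.21 ± 0.28 (adjusted p = 0.0273), a call lost without arf2 replicate 1 or 2 or any 1 labelled array. SUS1 fell in gnc gnl by 0.70 on the log2 scale (SE 0.21, limma, adjusted p = 0.0367) and differed by -0.47 in arf2, where its arrays overlapped WT. The gnc gnl call of SUS1 was lost without WT replicate 1, WT replicate 3, arf2 replicate 2 or gnc gnl replicate 2 (-0.84 to -0.48). PFK6 (AT4G32840), a phosphofructokinase of glycolysis, differed from WT by -0.12 in arf2 and -0.02 in gnc gnl and passed in neither.

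**Figure D2:**
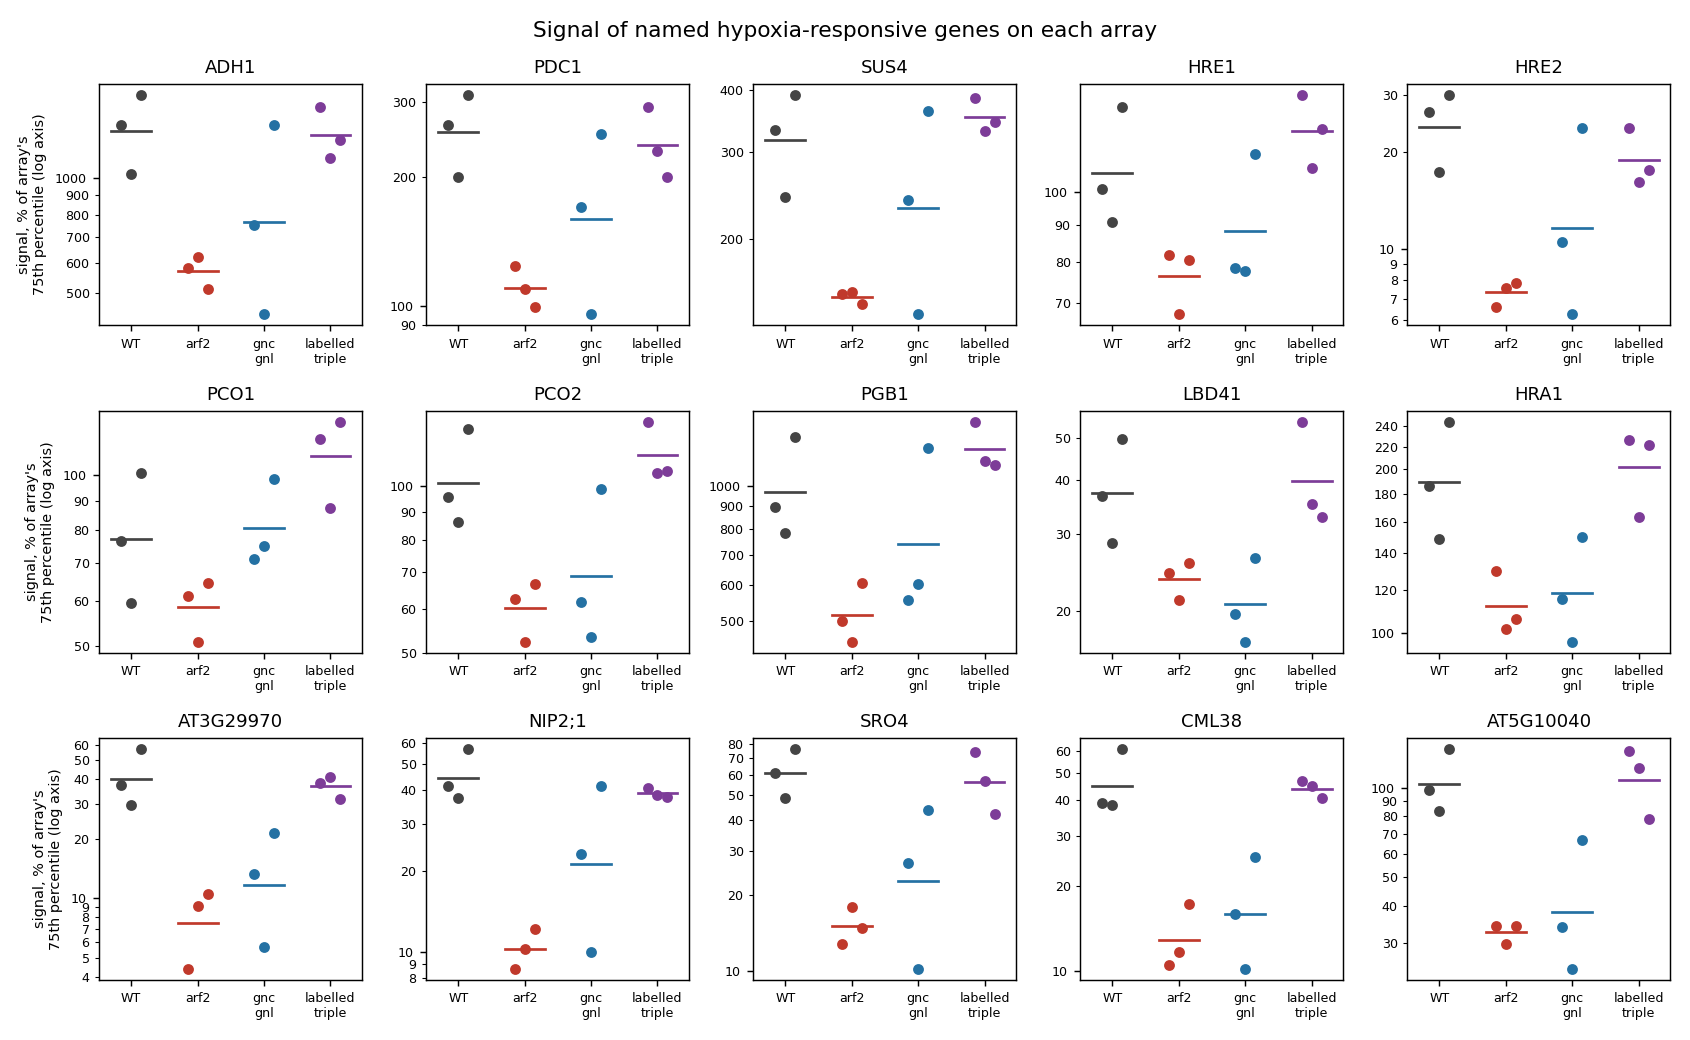
Signal of 15 named hypoxia-responsive genes on each array, as a percentage of the array's 75th percentile on a log axis. Points are the 3 replicates of a genotype in order, the bar is their geometric mean, and "labelled triple" stands for the libraries labelled arf2 gnc gnl. In 14 of the 15 panels the arf2 points lie below all WT points, PCO1 being the exception.

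Of the transcription factors, HRE2 fell in arf2, and LBD41 and HRA1 fell in gnc gnl. HRE2 (AT2G47520) read 26.5, 17.3 and 30.2% in WT, 6.61, 7.57 and 7.84% in arf2, 10.5, 6.25 and 23.7% in gnc gnl and 23.8, 16.1 and 17.6% in the labelled libraries. HRE2 and HRE1 are ERF-VII factors whose own transcripts respond to low oxygen. No arf2 array of HRE2 reached the lowest WT array, whereas gnc gnl ran from below arf2 into the WT range. The log2 difference was -1.71 ± 0.39 in arf2 (limma, adjusted p = 0.0295), 30.5% of WT, and -1.05 ± 0.39 in gnc gnl (adjusted p = 0.0712). The arf2 call was lost without arf2 replicate 1, arf2 replicate 2, WT replicate 1 or WT replicate 3, with differences of -1.95 to -1.55 over the 12 fits that each left out 1 library.

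HRE1 (AT1G72360) read 101, 90.8 and 131% in WT, 81.8, 67.5 and 80.4% in arf2, 78.3, 77.5 and 113% in gnc gnl and 137, 108 and 122% in the labelled libraries. The HRE1 differences from WT were smaller than those of HRE2, at -0.48 ± 0.17 in arf2 (limma, adjusted p = 0.151) and -0.27 ± 0.17 in gnc gnl (adjusted p = 0.277). The difference between the responses of HRE1 and HRE2 was not tested. The labelled libraries exceeded arf2 by 0.67 ± 0.17 for HRE1 (limma, adjusted p = 0.0375). Their arrays did not overlap those of arf2, but the call was lost without WT replicate 1, arf2 replicate 1 or 2 or any 1 labelled array.

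LBD41 (AT3G02550) read 36.7, 28.6 and 49.6% in WT, 24.4, 21.2 and 25.8% in arf2, 19.6, 17.0 and 26.5% in gnc gnl and 54.4, 35.2 and 32.8% in the labelled libraries. LBD41 encodes a LOB-domain factor of the core low-oxygen response. All gnc gnl and all arf2 arrays lay below the lowest WT array. LBD41 fell in gnc gnl by 0.85 on the log2 scale (SE 0.24, limma, adjusted p = 0.0251), and its arf2 difference was -0.65 ± 0.24 (adjusted p = 0.155). HRA1 (AT3G10040) read 186, 149 and 245% in WT, 130.2, 102 and 106% in arf2, 115, 96.3 and 149.8% in gnc gnl and 227, 164 and 221% in the labelled libraries. HRA1 encodes a trihelix factor that restrains the ERF-VII factor RAP2.12. Its log2 difference was -0.68 ± 0.21 in gnc gnl (limma, adjusted p = 0.0376), where replicate 3 just overlapped WT replicate 2, and -0.76 ± 0.21 in arf2 (adjusted p = 0.0615), where no array overlapped WT. Both gnc gnl calls were lost without WT replicate 1 or 3 or gnc gnl replicate 1 or 2, with differences of -1.05 to -0.65 for LBD41 and -0.85 to -0.49 for HRA1 over the 12 fits.

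The 3 members that handle oxygen and nitric oxide passed the test against WT in neither mutant, and all 3 were higher in the labelled libraries than in arf2. PCO2 (AT5G39890) read 95.7, 86.1 and 127% in WT, 62.6, 52.3 and 66.5% in arf2, 61.8, 53.3 and 98.7% in gnc gnl and 131, 106 and 106% in the labelled libraries. PCO2 and PCO1 encode cysteine oxidases that use oxygen to mark ERF-VII factors for degradation. The arf2 arrays of PCO2 lay below WT and the labelled libraries among or above WT. PCO2 differed by -0.76 ± 0.22 in arf2 (limma, adjusted p = 0.0711) and -0.56 ± 0.22 in gnc gnl (adjusted p = 0.0796). The labelled libraries exceeded arf2 by 0.92 ± 0.22 (adjusted p = 0.0288).

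PCO1 (AT5G15120) read 76.3, 59.5 and 101% in WT, 61.2, 50.9 and 64.5% in arf2, 71.1, 74.98 and 98.3% in gnc gnl and 115, 87.3 and 124% in the labelled libraries. PCO1 was the named gene whose arf2 arrays overlapped WT, and its gnc gnl arrays lay inside the WT range. It differed by -0.40 ± 0.20 in arf2, 0.07 ± 0.20 in gnc gnl and 0.48 ± 0.20 in the labelled libraries (limma, adjusted p = 0.326, 0.839 and 0.227). The gnc gnl difference had no settled sign, at -0.14 with slide as a fixed block, -0.12 without WT replicate 2 and -0.077 without gnc gnl replicate 3. Against arf2 the labelled libraries were higher by 0.88 ± 0.20 (adjusted p = 0.0271).

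PGB1 (AT2G16060) read 898, 786 and 1285% in WT, 499, 449 and 607% in arf2, 557, 604 and 1216% in gnc gnl and 1392, 1135 and 1116% in the labelled libraries. PGB1 encodes phytoglobin, which scavenges nitric oxide. The arf2 arrays lay below WT, and gnc gnl held 2 arrays below WT and 1 among them. PGB1 differed by -0.91 ± 0.27 in arf2 (limma, adjusted p = 0.0858) and -0.38 ± 0.27 in gnc gnl (adjusted p = 0.333). The labelled libraries exceeded arf2 by 1.23 ± 0.27 (adjusted p = 0.025). For PCO2, PCO1 and PGB1 alike, the call against arf2 was lost without arf2 replicate 1, arf2 replicate 2 or any 1 labelled array.

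The members for calcium signalling, transport and the SRO family held the 3 largest arf2 differences among genes with a common name. CML38, SRO4, SRO5 and NIP2;1 fell in arf2, and CML38, SRO4 and PP2-A11 fell in gnc gnl. CML38 (AT1G76650) read 39.2, 38.4 and 60.8% in WT, 10.5, 11.6 and 17.2% in arf2, 15.8, 10.2 and 25.1% in gnc gnl and 46.7, 44.9 and 40.8% in the labelled libraries. CML38 encodes a calmodulin-like protein that gathers in stress granules under low oxygen. Every arf2 and every gnc gnl array lay below every WT array. CML38 stood at 28.4% of WT in arf2 (log2 difference -1.82 ± 0.30, limma, adjusted p = 0.00576) and 35.3% in gnc gnl (-1.50 ± 0.30, adjusted p = 0.00601). Both calls held in each of the 12 fits that left out 1 library, with differences of -2.03 to -1.60 and -1.83 to -1.18.

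NIP2;1 (AT2G34390) read 41.3, 37.5 and 56.9% in WT, 8.63, 10.2 and 12.2% in arf2, 23.1, 9.92 and 41.4% in gnc gnl and 40.7, 38.4 and 37.5% in the labelled libraries. NIP2;1 encodes an aquaporin-type channel of roots. The arf2 arrays lay far below WT, and gnc gnl ran from the arf2 range to the WT range. It fell in arf2 to 23.0% of WT (log2 difference -2.12 ± 0.39, limma, adjusted p = 0.0104), a call that held in all 12 fits (-2.24 to -1.94). In gnc gnl the difference was -1.07 ± 0.39 (adjusted p = 0.068).

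SRO4 (AT3G47720) read 61.5, 48.7 and 76.4% in WT, 12.8, 17.9 and 14.9% in arf2, 26.8, 10.2 and 43.7% in gnc gnl and 74.1, 57.0 and 42.1% in the labelled libraries. SRO4 and SRO5 (AT5G62520) belong to a small plant family related to the stress regulator RCD1. No arf2 or gnc gnl array of SRO4 reached WT. SRO4 differed by -2.02 ± 0.43 in arf2 (limma, adjusted p = 0.0208) and -1.42 ± 0.43 in gnc gnl (adjusted p = 0.0339). The arf2 call was lost without arf2 replicate 1, arf2 replicate 2, WT replicate 1 or WT replicate 3 (-2.19 to -1.86), and the gnc gnl call without any 1 of the WT arrays or gnc gnl replicate 1 or 2 (-1.89 to -0.84). SRO5 differed by -1.19 ± 0.23 in arf2 (adjusted p = 0.0126, lost without WT replicate 1 or 3 or arf2 replicate 1) and -0.47 ± 0.23 in gnc gnl (adjusted p = 0.158).

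SAD6 (AT1G43800), a stearoyl-ACP desaturase gene, differed by -1.13 ± 0.34 in arf2 and -0.97 ± 0.34 in gnc gnl, and neither passed limma's test (adjusted p = 0.0818 and 0.0575). PP2-A11 (AT1G63090), a phloem protein 2-like gene, fell slightly in gnc gnl, by 0.46 on the log2 scale (SE 0.11, adjusted p = 0.0133). ACR7 (AT4G22780), which encodes a protein with ACT domains, differed by -0.10 in arf2 and -0.14 in gnc gnl and passed in neither. EXL1 (AT1G35140), an exordium-like gene, read 66.8, 67.6 and 49.6% in WT, 37.2, 33.2 and 79.4% in arf2 and 119.7, 71.9 and 136% in gnc gnl. All gnc gnl arrays of EXL1 lay above all WT arrays, opposite to most members. The log2 difference of 0.79 ± 0.32 missed the threshold (adjusted p = 0.0908).

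The 16 loci without a common name in the annotation used here held 6 of the 12 falls in arf2 and 8 of the 14 in gnc gnl. Their log2 differences ran from -2.42 to 0.20 in arf2 (median -0.92), from -1.77 to -0.23 in gnc gnl (median -0.66) and from -0.40 to 0.49 in the labelled libraries (median 0.03). AT3G29970 read 37.6, 29.8 and 57.0% in WT, 4.39, 9.11 and 10.5% in arf2, 13.3, 5.64 and 21.5% in gnc gnl and 38.4, 41.2 and 32.0% in the labelled libraries. No mutant array reached the lowest WT array, and the labelled libraries lay within the WT range. AT3G29970 had the largest arf2 difference of the 37, -2.42 ± 0.45 on the log2 scale or 18.7% of WT (limma, adjusted p = 0.0113). In gnc gnl it differed by -1.77 ± 0.45 (adjusted p = 0.0177). Both calls were lost without WT replicate 3, where the differences were -2.16 in arf2 and -1.52 in gnc gnl.

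AT5G10040 read 98.1, 83.2 and 135% in WT, 34.3, 29.7 and 34.2% in arf2, 34.0, 24.6 and 66.6% in gnc gnl and 133, 116 and 78.3% in the labelled libraries. Again every arf2 and gnc gnl array lay below WT. AT5G10040 differed by -1.66 ± 0.32 in arf2 (limma, adjusted p = 0.0139) and -1.44 ± 0.32 in gnc gnl (adjusted p = 0.0102). The gnc gnl call held in all 12 fits that left out 1 library (-1.84 to -1.12), and the arf2 call was lost without WT replicate 3 or arf2 replicate 2 (-1.82 to -1.47). AT4G27450 differed by -1.20 ± 0.29 in arf2 and -1.09 ± 0.29 in gnc gnl. Both passed, and the calls were kept in 5 and 10 of the 12 fits. AT1G26270 differed by -0.35 ± 0.08 and -0.29 ± 0.08, with calls kept in 7 and 9 of the 12 fits. The other loci of this class that fell were AT3G23170 and AT5G66985 in arf2 and AT1G33055, AT4G10270, AT4G39675 and AT5G45960 in gnc gnl. Outlier spots left AT1G19530 with 2 WT values and AT5G66985 with 2 labelled values.

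AT3G10020 had an arf2 difference above 0, unlike the other 36 members. It read 662, 828 and 849.6% in WT, 858, 810.3 and 1006% in arf2, 502, 594 and 698% in gnc gnl and 638, 511 and 619% in the labelled libraries. Its arf2 arrays overlapped WT and the labelled libraries lay below WT. It differed by 0.20 ± 0.15 in arf2 (limma, adjusted p = 0.54) and by -0.39 ± 0.15 in gnc gnl (adjusted p = 0.0738), and was the 1 member called lower in the labelled libraries than in arf2 (-0.60 ± 0.15, adjusted p = 0.0311). That call was lost without any 1 of the arf2 or labelled arrays. All 3 of its probes gave the same directions. Across the set, 18 members had 23 further probes, of which 21 were well above background on all 12 arrays. All 21 had the sign of the probe used in arf2, in gnc gnl and in the labelled libraries against arf2. Sizes differed between some probes. The other AT3G23170 probe gave -0.28 in arf2 against -0.75, and -0.0043 in gnc gnl against -0.35. The other PP2-A11 probe gave -0.26 in gnc gnl against -0.46. The other SUS1 probe gave -0.75 in arf2 against -0.47.

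**Figure D3:**
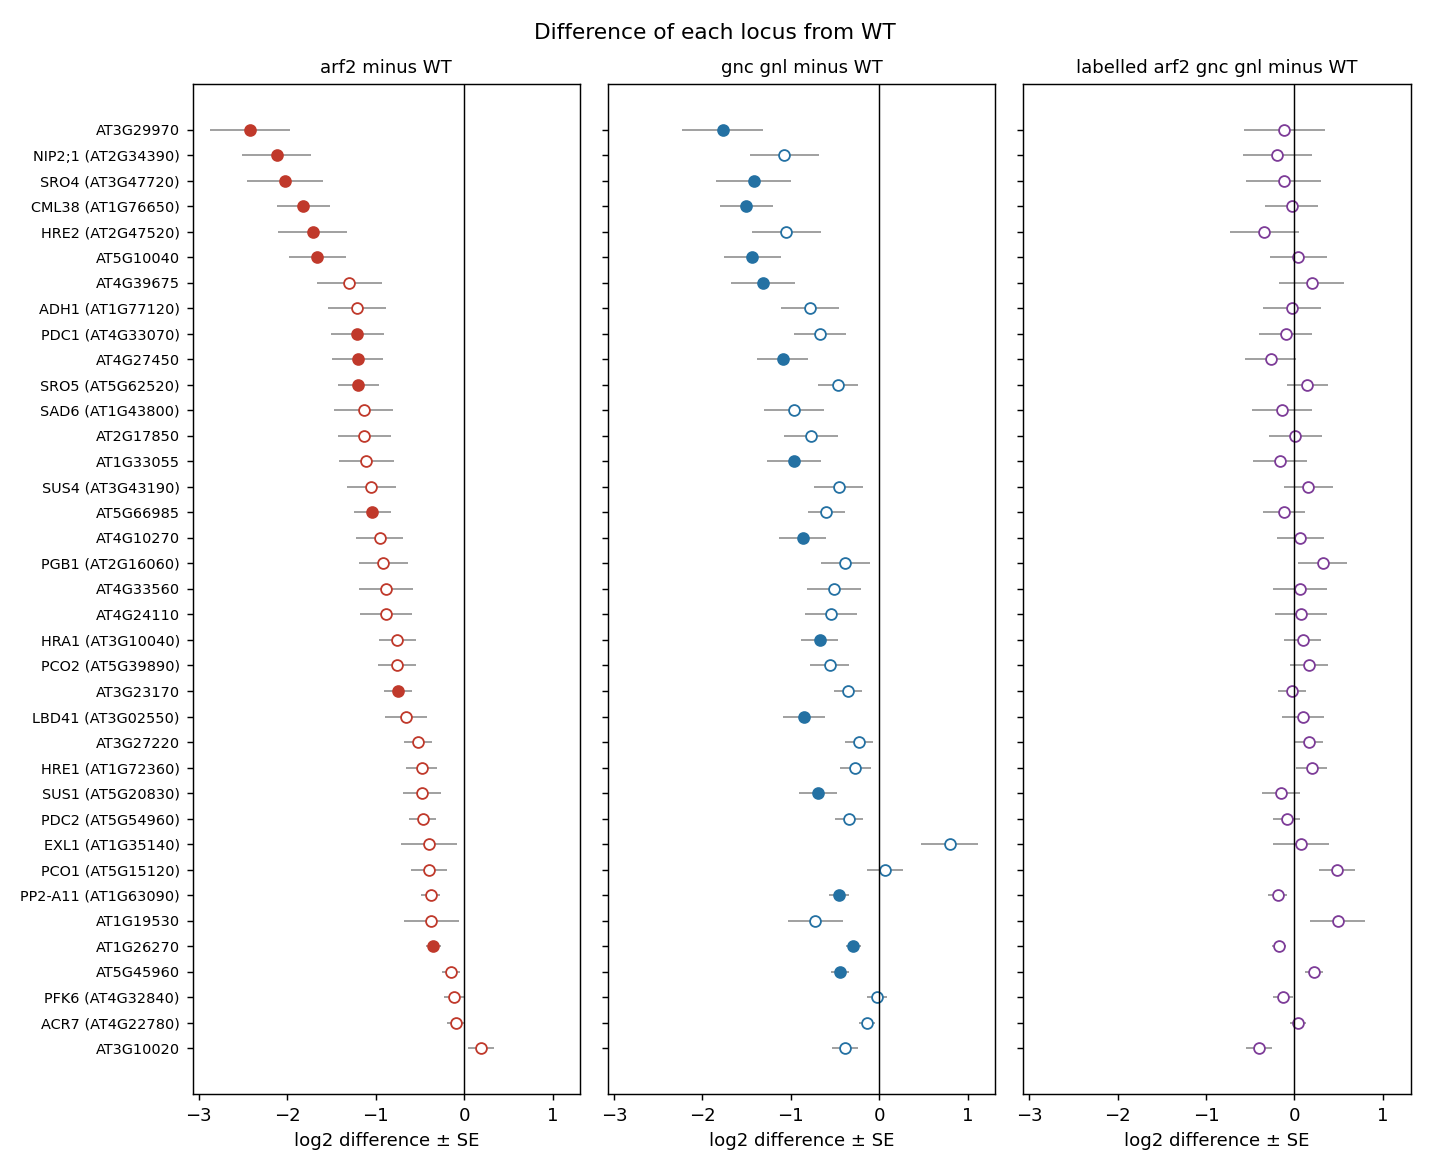
Log2 difference from WT, with its SE, of each of the 37 loci in arf2, gnc gnl and the libraries labelled arf2 gnc gnl. Filled points passed limma's test at an adjusted p under 0.05. There are 12 filled points in arf2 and 14 in gnc gnl, all below 0, and 0 in the labelled libraries.

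In arf2, 29 of the 36 members with a value on every array had all 3 arf2 arrays below all 3 WT arrays, which 14.0% of all genes did. On slide 1, which holds WT and arf2 replicate 1, 35 of 37 members were below 0 in arf2, with a median of -0.82. With slide as a fixed block this difference rests on slide 1 alone, so its median of -0.82 repeats that value and is no second result. In that fit limma called 1 member, and 18 had an unadjusted p under 0.05. The number called depended on single libraries. It fell from 12 to 4 without WT replicate 1, to 2 without WT replicate 3 and to 4 without arf2 replicate 1 or arf2 replicate 2. It rose to 21 without gnc gnl replicate 2 and to 22 without gnc gnl replicate 3. Those arrays enter the comparison only through the shared estimate of spread and the choice of genes tested. Without the labelled libraries as a group the number called was 9. Calls over all tested genes ran from 449 without WT replicate 1 to 1480 without arf2 replicate 3. All 12 called differences kept their sign in each of the 12 fits that left out 1 library.

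In gnc gnl the picture turned on replicate 3, whose members lay near WT. All 3 gnc gnl arrays lay below all 3 WT arrays for 13 of 36 members, beside 20.4% of all genes. Without gnc gnl replicate 3, 29 members were called in place of 14. Without WT replicate 1 the count was 8, without WT replicate 3 it was 4, without gnc gnl replicate 1 it was 8 and without gnc gnl replicate 2 it was 6. Without the labelled libraries it was 12. With 1 library left out, calls over all tested genes ran from 2376 without WT replicate 2 to 4858 without arf2 replicate 3. Differences that were not called in gnc gnl moved as well. Between the fits without gnc gnl replicate 3 and without gnc gnl replicate 2, ADH1 ran from -1.20 to -0.38, PDC1 from -0.997 to -0.30, SUS4 from -0.79 to -0.10, HRE2 from -1.57 to -0.60 and NIP2;1 from -1.56 to -0.52. No slide held both gnc gnl and WT. With slide as a fixed block, a value that runs through the arf2 and labelled arrays, the median difference was -0.38. Limma then called 0 members, and 4 had an unadjusted p under 0.05. The 14 called differences kept their sign in every fit that left out 1 library.

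A direct comparison of arf2 with gnc gnl called 2 members higher and 2 lower, beside 17.1% and 19.3% of all genes. The median was -0.22, and it was -0.50 without gnc gnl replicate 2 and -0.023 without gnc gnl replicate 3. AT3G10020 (0.58 ± 0.15) and AT5G45960 (0.29 ± 0.10) were higher in arf2, and EXL1 (-1.19 ± 0.32) and SRO5 (-0.73 ± 0.23) were lower (limma, adjusted p = 0.0102, 0.0442, 0.014 and 0.0292). With slide as a fixed block limma called 0, and 2 had an unadjusted p under 0.05. The count of 4 became 1 without arf2 replicate 1 or arf2 replicate 2, 2 without gnc gnl replicate 3 and 12 without gnc gnl replicate 2. Fits that left out 1 library called 4756 (without arf2 replicate 2) to 7032 (without labelled replicate 3) of all tested genes. The AT3G10020 call held in all 12 of these fits, those of EXL1 and SRO5 in 9 and that of AT5G45960 in 3.

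The labelled libraries were also set against each mutant. In them GNC was low, ARF2 read 54.4% to 70.5% of the WT mean and GNL lay above WT. Against arf2, 21 members were higher and 1 lower (4.27% and 4.51% of all genes), with a median log2 difference of 0.93. All 3 labelled arrays lay above all 3 arf2 arrays for 30 of 36 members, beside 16.3% of all genes. On slide 2, which holds 2 arrays of each, 36 of 37 members were above 0, with a median of 0.95. With slide as a fixed block this difference rests on slide 2 alone, so its median of 0.95 repeats that value and is no second result. In that fit limma called 0 members, and 29 had an unadjusted p under 0.05. The count of 22 called either way was 0 without arf2 replicate 1 or arf2 replicate 2. It was 4 without labelled replicate 1, 1 without labelled replicate 2 and 4 without labelled replicate 3. Calls over all tested genes varied as well, from 140 without arf2 replicate 2 to 2814 without arf2 replicate 3. No called member changed sign in any of the 12 fits.

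Against gnc gnl, 9 members were higher in the labelled libraries and 0 lower by limma (5.35% and 6.22% of all genes), and 13 were higher with the replicate number as a block. The median was 0.66, and it was 0.36 without gnc gnl replicate 2 and 0.94 without gnc gnl replicate 3. The 3 labelled arrays lay above the 3 gnc gnl arrays for 12 of 36 members, beside 14.7% of all genes. On slide 3, which holds 1 labelled array and the 3 gnc gnl arrays, 35 of 37 members were above 0, with a median of 0.59. With slide as a fixed block limma called 0, and 7 had an unadjusted p under 0.05. CML38 (1.47 ± 0.30), AT5G10040 (1.48 ± 0.32) and AT3G29970 (1.66 ± 0.45) were among those called (limma, adjusted p = 0.0129, 0.0167 and 0.0406), and their calls were kept in 11, 9 and 5 of the 12 fits that left out 1 library. The count of 9 became 23 without gnc gnl replicate 3, 2 without gnc gnl replicate 1 and 3 without gnc gnl replicate 2. It was 1 without labelled replicate 1, 3 without labelled replicate 2 and 6 without WT replicate 1 or arf2 replicate 2. Calls over all tested genes ran from 862 without labelled replicate 2 to 2383 without arf2 replicate 3. AT5G45960, called in all 12 fits, differed by 0.66 ± 0.10.

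The difference of differences was added after the data were seen. It sets the labelled libraries minus gnc gnl against arf2 minus WT, and it rests on a label that ARF2 and GNL contradict. It was called above 0 for 18 members and below 0 for none, beside 1.57% and 1.09% of all genes, with a median of 1.58. The largest values were those of AT3G29970, at 4.07 ± 0.64, SRO4, at 3.32 ± 0.60, and CML38, at 3.29 ± 0.42. No fermentation gene passed, and ADH1 had 1.97 ± 0.46 (limma, adjusted p = 0.051). With slide as a fixed block the median was 1.36, limma called 0, and 25 had an unadjusted p under 0.05. The count of 18 was 5 without WT replicate 1, 11 without WT replicate 2 and 3 without WT replicate 3. It was 4 without arf2 replicate 1, 6 without arf2 replicate 2, 4 without labelled replicate 1, 6 without labelled replicate 2 and 10 without gnc gnl replicate 1. Calls over all tested genes ran from 140 without WT replicate 3 to 923 without arf2 replicate 3. The calls of CML38, AT3G29970 and AT5G10040 held in all 12 fits.

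Few genes that control the response passed in either mutant. Of 19 tested ERF-VII and N-degron regulators, 1 fell in arf2 and none rose, beside 3.26% of all genes that fell there. In gnc gnl 3 rose and none fell, beside 12.5% of all genes that rose. The counts of 1 and 3 lay near these shares and are no result about the list. The gene that fell was GLB3 (AT4G32690), a phytoglobin gene (-0.35 ± 0.09, limma, adjusted p = 0.0469). In gnc gnl RAP2.12 (AT1G53910), a constitutive ERF-VII factor, rose by 0.51 ± 0.07 (adjusted p = 0.00104). EBP (AT3G16770), also known as the ERF-VII factor RAP2.3, rose by 0.72 ± 0.15, and ACBP2 (AT4G27780), an acyl-CoA-binding protein that can hold RAP2.12 at the membrane, by 0.42 ± 0.08. The median of the list was -0.013 in arf2, 0.043 in gnc gnl and -0.031 in the labelled libraries, where limma called 0 of 19 and 2 had an unadjusted p under 0.05.

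Other genes of fermentation, sucrose use and glycolysis were mostly not called in arf2, and those called in gnc gnl mostly rose. Of 31 tested, 2 rose and none fell in arf2, with a median of 0.07, beside 2.48% of all genes that rose. They were PFK2 (AT5G47810), a phosphofructokinase gene (0.99 ± 0.12, limma, adjusted p = 0.00076), and SUS3 (AT4G02280), a sucrose synthase gene (0.89 ± 0.20, adjusted p = 0.026). In gnc gnl 12 rose and 1 fell, with a median of 0.24, beside 12.5% of all genes that rose. They included TPI (AT3G55440), triose phosphate isomerase (0.50 ± 0.07), ACS (AT5G36880), acetyl-CoA synthetase (0.41 ± 0.07), and PFK1 (AT4G29220), a phosphofructokinase (0.32 ± 0.07). In the labelled libraries limma called 0 of 31, and 5 had an unadjusted p under 0.05.

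Of 13 further low-oxygen genes outside the set, 2 fell and none rose in arf2, with a median of -0.39 and all 13 differences below 0. Over all tested genes 3.26% fell in arf2. AGL44 (AT2G14210), a MADS-box gene, fell by 1.25 on the log2 scale (SE 0.29, limma, adjusted p = 0.0309), and ETR2 (AT3G23150), an ethylene receptor gene, by 0.59 (SE 0.14, adjusted p = 0.0352). In gnc gnl RBOHD (AT5G47910), an NADPH oxidase gene, fell (-0.31 ± 0.08), UKL3 (AT1G55810) and AT5G42200 rose (0.55 ± 0.15 and 0.43 ± 0.12), and the median was -0.057. There 12.1% of all genes fell and 12.5% rose. In the labelled libraries limma called 0 of 13 against WT, with 1 at an unadjusted p under 0.05. Against arf2, 5 were higher, beside 4.27% of all genes. Of 5 sugar starvation genes, DIN10 (AT5G20250) fell in arf2 (-1.29 ± 0.33, adjusted p = 0.044) and DIN11 (AT3G49620) rose in gnc gnl (2.01 ± 0.31, adjusted p = 0.00167).

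Other gene lists moved with the genotypes on these arrays. Of 15 seed markers, 10 rose in arf2, 7 in gnc gnl and 8 in the labelled libraries, and none fell. Over all tested genes 2.48%, 12.5% and 1.33% rose, in the same order. All 15 were well above background on some array. Their mean log2 level, relative to the 75th percentile, ran from -5.01 to -4.20 in WT, -0.83 to -0.42 in arf2, -3.40 to -0.59 in gnc gnl and -2.37 to 0.051 in the labelled libraries. In gnc gnl the seed marker level was -0.59, -2.07 and -3.40 in replicates 1 to 3. The medians of the members there were -0.67, -1.13 and -0.15. Replicate 3 thus lay nearest WT in both, while replicate 1 lay farthest from WT in seed markers and replicate 2 in members. The labelled libraries had seed markers above WT and members near WT. Their part in the differences of the members was not tested.

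Of 18 tested root markers, 3 fell in arf2, among them MYB36 (-0.62 ± 0.12) and THAS1 (-1.08 ± 0.25), and none rose, with a median of -0.37. Over all tested genes 3.26% fell in arf2. In gnc gnl 3 rose, EXPA7 (0.92 ± 0.22), MYB36 (0.45 ± 0.12) and SHV2 (0.70 ± 0.21), and HKT1 fell (-0.35 ± 0.11). There 12.5% of all genes rose and 12.1% fell. Limma called 0 of 18 in the labelled libraries (2 at an unadjusted p under 0.05), where the median was -0.16. The mean log2 level of the 20 root markers ran from -0.91 to -0.32 in WT, -1.23 to -0.79 in arf2, -0.73 to -0.43 in gnc gnl and -1.12 to -0.69 in the labelled libraries. The median root marker difference in gnc gnl was 0.25. Of 10 shoot markers, limma called 0 in arf2, where all 10 differences were above 0 (median 0.19) and 5 had an unadjusted p under 0.05. Their mean log2 level ran from 5.31 to 5.39 in arf2, above the 5.06 to 5.26 of WT. In the labelled libraries 0 were called and 1 had an unadjusted p under 0.05. In gnc gnl LHCB2.1 and CER1 fell and KCS6 rose (-0.48 ± 0.09, -0.49 ± 0.15 and 0.41 ± 0.13), beside 12.1% and 12.5% of all genes. The part of root and shoot content in the differences of the members was not tested.

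Of 8 tested genes of touch and rapid stress, 5 fell in arf2, 3 in gnc gnl and 2 in the labelled libraries. Over all tested genes 3.26%, 12.1% and 0.943% fell, in the same order. CML37 (AT5G42380), a calmodulin-like gene related to CML38, differed by -1.59 ± 0.26 in arf2, -1.78 ± 0.26 in gnc gnl and -1.21 ± 0.26 in the labelled libraries (limma, adjusted p = 0.00544, 0.00145 and 0.0396). STZ (AT1G27730), a zinc finger gene, differed by -0.74 ± 0.16, -0.98 ± 0.16 and -0.99 ± 0.16 in the same order. WRKY40 (AT1G80840) fell in arf2 (-1.14 ± 0.25) and SZF1 (AT3G55980) in gnc gnl (-0.33 ± 0.10). CML37 and STZ stayed low in the labelled libraries, where CML38 was at the WT level. The part of these genes in the differences of the members was not tested.

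**Figure D4:**
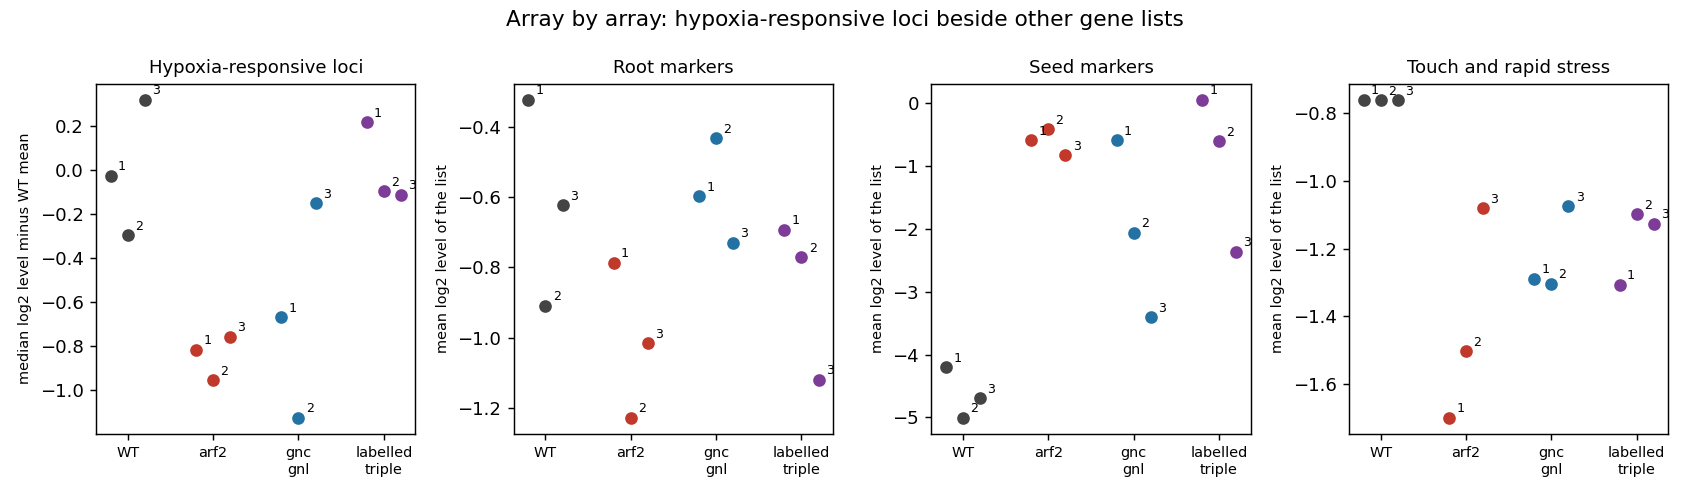
Left, median log2 level of the hypoxia-responsive loci minus the WT mean on each array. The other panels give the mean log2 level of the root, seed and touch and rapid stress lists on the same arrays, relative to the array's 75th percentile. Numbers are replicates, and "labelled triple" stands for the libraries labelled arf2 gnc gnl. The members of gnc gnl replicates 1 to 3 lie at -0.67, -1.13 and -0.15. Among these arrays seed markers are highest in replicate 1 and lowest in replicate 3.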

How the data were processed

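Total RNA of whole seedlings was labelled with Cy3 and read on 1-colour arrays, 3 per genotype, per the labels' protocols. The deposited scanner files hold spot intensity on a linear scale, and the software detrended it spatially, per the file headers. It was Agilent Feature Extraction 10.7.3.1 according to the submitters' processing notes. The values deposited for the whole series were identical (0 cells differed). Symbols came from a RefSeq list for TAIR10.1, and since the headers name another build for the array design, no coordinates are given. No sequences were used.

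Without control and outlier spots, each array's deposited intensities (the processed signal) were divided by their 75th percentile and taken to log2. Of 43603 probes, 34285 had a locus. A gene was read from its brightest probe over all arrays and tested where every array of some genotype was well above background and each genotype had at least 2 values. Limma 3.58.1 (lmFit, eBayes, 8 residual degrees of freedom) fitted the genotype means to all 12 arrays in R 4.3.3, with the data.table package (1.17.8). The fit was tested on simulated data. The number of arrays limits the precision. Figures used matplotlib 3.10.9 in Python 3.11.15.

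The members and gene lists were chosen with earlier results of these arrays known, so no list test was made. Values on every array are given for ADH1, PDC1, SUS4, HRE1, HRE2, PCO1, PCO2, PGB1, LBD41 and HRA1, and for the 4 largest changes each way among members called against WT. EXL1 and AT3G10020 were added after their values were seen. From each other list except the seed markers, up to 3 called genes with the smallest p are named per comparison with WT. Where root markers moved both ways, 4 are named. A root marker that this rule would name is not reported here. Same-numbered samples deviated together, with every correlation over 0.1, for labelled against gnc gnl (0.13 to 0.35) and in no other comparison. The replicate number, slide, scaling, background, filter and probe rule were varied, and each array was left out in turn. The median spot signal replaced the mean spot signal planned for normexp, and the planned count of promoter motifs was not made.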

Additional observations from a re-analysis of the deposited data

Results flagged for a closer look

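In 18 hypoxia-responsive members, the libraries labelled arf2 gnc gnl minus gnc gnl were called different from arf2 minus WT. This was tested as a difference of differences on the log2 scale (limma, ± SE, Benjamini-Hochberg adjustment over the 18976 genes), added after the data were seen, and the label of the first libraries was contradicted by ARF2 and GNL. All 18 values were above 0, which does not mean that each passed in the comparisons it is made of. Among all tested genes 1.57% were called above 0 and 1.09% below. Only the calls of AT3G29970, AT5G10040 and CML38 were kept in each of the 12 fits that left out 1 library. With slide as a fixed block limma called 0 members, and 25 had an unadjusted p under 0.05.

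The largest were those of AT3G29970 with 4.07 ± 0.64 (adjusted p = 0.0121), SRO4 (AT3G47720) with 3.32 ± 0.60 (adjusted p = 0.0212), CML38 (AT1G76650) with 3.29 ± 0.42 (adjusted p = 0.00641) and AT5G10040 with 3.14 ± 0.46 (adjusted p = 0.00936). Next came NIP2;1 (AT2G34390) with 2.997 ± 0.55 (adjusted p = 0.0223), AT4G39675 with 2.81 ± 0.51 (adjusted p = 0.0216), HRE2 (AT2G47520) with 2.42 ± 0.55 (adjusted p = 0.0467) and AT4G27450 with 2.02 ± 0.41 (adjusted p = 0.0314). Smaller values were found for AT2G17850 with 1.91 ± 0.43 (adjusted p = 0.0453), AT1G33055 with 1.91 ± 0.43 (adjusted p = 0.0468), AT4G10270 with 1.89 ± 0.37 (adjusted p = 0.028), SRO5 (AT5G62520) with 1.81 ± 0.32 (adjusted p = 0.0201) and LBD41 (AT3G02550) with 1.60 ± 0.34 (adjusted p = 0.0362). The smallest were those of HRA1 (AT3G10040) with 1.52 ± 0.30 (adjusted p = 0.026), AT5G66985 with 1.52 ± 0.32 (adjusted p = 0.0394), PCO2 (AT5G39890) with 1.48 ± 0.31 (adjusted p = 0.0341), AT3G23170 with 1.07 ± 0.22 (adjusted p = 0.0362) and AT5G45960 with 0.81 ± 0.14 (adjusted p = 0.0199).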

How the results depend on the processing

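The number of arrays and the spread within WT and gnc gnl limit these calls. Counts are given in the order arf2 against WT, gnc gnl against WT, labelled against arf2, labelled against gnc gnl, arf2 against gnc gnl and the difference of differences, with 12, 14, 22, 9, 4 and 18 members called in the reported analysis. Calls over all tested genes are given only for the reported analysis and the fits that left out 1 library. Changes in the other settings are therefore not shown to be particular to the members. With normexp background correction they were 1, 6, 0, 0, 2 and 2 by limma, although 30 members for labelled against arf2 and 19 for labelled against gnc gnl still had an unadjusted p under 0.05. With slide as a fixed block limma called 1, 0, 0, 0, 0 and 0, and 18, 4, 29, 7, 2 and 25 had an unadjusted p under 0.05. Without the filter on dim probes gnc gnl against WT gave 9, labelled against gnc gnl 5 and the difference of differences 8. With only the 2 groups compared, arf2 against WT gave 20, gnc gnl against WT 7, labelled against gnc gnl 4 and arf2 against gnc gnl 2. Arrays of 1 slide gave 5 for arf2 against WT, 3 for labelled against arf2 and 0 for labelled against gnc gnl, where 5 had an unadjusted p under 0.05. A log2 change of at least 1 as well left 6 for gnc gnl against WT, 13 for labelled against arf2, 5 for labelled against gnc gnl and 1 for arf2 against gnc gnl.

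With the replicate number as a block the counts were 23, 20, 27, 13, 7 and 26. Deviations of same-numbered samples all correlated over 0.1 for labelled against gnc gnl alone (0.13 to 0.35). Its count was 13 in place of 9. Samples with different numbers reached 0.48, for gnc gnl replicate 2 with WT replicate 3, so these correlations do not establish pairing. The causes of the changes in count were not tested. Leaving out 1 library gave 2 to 22 called members for arf2 against WT, 4 to 29 for gnc gnl against WT, 0 to 27 for labelled against arf2, 1 to 23 for labelled against gnc gnl, 1 to 12 for arf2 against gnc gnl and 3 to 26 for the difference of differences. Over all tested genes the ranges were 449 to 1480, 2376 to 4858 and 140 to 2814 for the comparisons named first. They were 862 to 2383, 4756 to 7032 and 140 to 923 for the others, in the same order. Labelled against WT gave 0 called members by limma in each setting run, with 0 to 4 members at an unadjusted p under 0.05 where no library was left out. Every called difference kept its sign in the fits that left out 1 library. The reversed value was that of PCO1 in gnc gnl against WT, 0.07 in the reported analysis, -0.14 with slide as a fixed block, -0.12 without WT replicate 2 and -0.077 without gnc gnl replicate 3, with -0.12 to 0.26 over the fits that left out 1 library.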
